A study of Mus musculus with 15 samples.

Results

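The Cyp3a family of cytochrome P450 enzymes was examined in livers of mice on 2 high-fat diets and on a base diet. The 7 members, Cyp3a11, Cyp3a13, Cyp3a16, Cyp3a25, Cyp3a41a, Cyp3a44 and Cyp3a59, were taken by gene symbol from the 23420 genes of the deposited count tables. Each had a row for all 15 libraries, though not every member had counts in every library. The members were picked by name, but with earlier results of these data known. The tables held 2 further rows of the family, Cyp3a41b and Cyp3a57, which are described where they bear on a member.

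CYP3A enzymes sit in the endoplasmic reticulum of hepatocytes and enterocytes, where they oxidise steroids, bile acids and a large share of lipophilic drugs, with electrons passed on by the reductase Por and by cytochrome b5. Their genes are classical targets of the pregnane X receptor PXR (gene Nr1i2) and of the constitutive androstane receptor CAR (gene Nr1i3), which pair with the retinoid X receptor on repeats of a short half-site related to AGGTCA. Cyp3a11 is the main form of adult male mouse liver, Cyp3a16 is known as a fetal and neonatal form, and Cyp3a41a and Cyp3a44 are known as forms of female liver.

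Each diet had 5 libraries of polyA RNA from the pulverized left lobe of livers of male C57Bl/6J mice. MCD was a 31% fat diet deficient in methionine, choline and folate, HFD was a diet with 31% fat, and BD was a base diet with 4% fat. All 15 libraries were from animals given the vehicle alone (5% Alkmauls El-620 in saline), 24 h after that treatment, so none had received the solvent tetrachloroethylene, which the series as a whole concerns. The labels give neither the weeks on a diet nor the age, and nothing in them says that libraries stand for separate animals, so the p-values rest on the spread between these samples only. The numbers in the sample titles ran from 51 to 60 for the MCD and HFD libraries and formed a separate, later block for BD, so the base diet and anything that came with that block cannot be told apart.

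The libraries held 3704642 to 23131089 gene counts (median 10312311), so 3 counts were worth 0.130 to 0.810 counts per 1000000 gene counts (CPM). Alignments without a unique position, which entered no gene, numbered 1.19 to 1.66 per gene count in MCD, 1.15 to 2.53 in HFD and 1.49 to 2.80 in BD. HFD replicate 2 held the highest value of its diet for Cyp3a11, Cyp3a13, Cyp3a16, Cyp3a25 and Cyp3a59. Earlier results of these data had put that library and MCD replicate 3 in doubt, so the members' values without both are given as well. Of 6 hepatocyte markers, with Alb first among them, the summed level was 141669 to 173615 CPM in MCD, 128022 to 151848 CPM in HFD and 138985 to 154096 CPM in BD.

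The sequences upstream of the members differ, and with them the short motifs near each start. The sequences are the 250 bases before the RefSeq start (GRCm38.p6, chromosome 5), printed 5′ to 3′ in the direction of the gene for the 5 members with enough counts for a test. Capitals mark AGGTCA and AGTTCA, the half-sites bound by PXR and CAR, and CAAAGTCCA, a sequence of the kind bound by HNF4A, each on either strand.
Cyp3a11: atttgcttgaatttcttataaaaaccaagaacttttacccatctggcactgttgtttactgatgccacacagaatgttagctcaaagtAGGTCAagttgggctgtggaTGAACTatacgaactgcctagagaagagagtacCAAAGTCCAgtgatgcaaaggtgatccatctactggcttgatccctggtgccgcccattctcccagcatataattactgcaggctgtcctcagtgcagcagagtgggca
Cyp3a16: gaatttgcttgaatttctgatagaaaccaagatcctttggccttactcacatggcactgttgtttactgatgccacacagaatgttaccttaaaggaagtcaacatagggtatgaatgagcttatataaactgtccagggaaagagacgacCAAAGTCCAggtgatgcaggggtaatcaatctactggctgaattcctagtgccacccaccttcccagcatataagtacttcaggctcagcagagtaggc
Cyp3a25: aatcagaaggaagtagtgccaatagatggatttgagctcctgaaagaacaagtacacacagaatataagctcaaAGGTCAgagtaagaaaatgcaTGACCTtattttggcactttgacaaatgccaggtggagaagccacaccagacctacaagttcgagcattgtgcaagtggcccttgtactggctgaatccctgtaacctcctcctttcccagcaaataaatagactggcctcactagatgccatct
Cyp3a59: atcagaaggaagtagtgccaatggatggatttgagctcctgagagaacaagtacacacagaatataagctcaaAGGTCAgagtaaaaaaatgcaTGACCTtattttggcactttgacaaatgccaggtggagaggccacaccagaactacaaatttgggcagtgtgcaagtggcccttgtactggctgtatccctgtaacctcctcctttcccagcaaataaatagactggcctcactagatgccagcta
Cyp3a13: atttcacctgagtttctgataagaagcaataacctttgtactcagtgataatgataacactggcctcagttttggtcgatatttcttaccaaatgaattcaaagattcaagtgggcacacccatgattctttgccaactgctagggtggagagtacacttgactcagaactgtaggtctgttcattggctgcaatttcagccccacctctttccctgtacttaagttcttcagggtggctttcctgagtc
The Cyp3a11 window (chr5:145879855-145880104, minus strand) held AGGTCA from base -162 to -157, TGAACT, the reverse strand of AGTTCA, from -142 to -137, and CAAAGTCCA from -109 to -101. Cyp3a25 (chr5:146009619-146009868, minus strand) and Cyp3a59 (chr5:146079008-146079257, plus strand) each held AGGTCA followed by its reverse strand TGACCT, starting at -176 and -155 in Cyp3a25 and at -177 and -156 in Cyp3a59. The Cyp3a16 window (chr5:145469724-145469973, minus strand) held CAAAGTCCA at -99 and no half-site. In the Cyp3a13 window (chr5:137921620-137921869, minus strand) none of these letters were found. TATAA was absent there too, while the windows of Cyp3a11, Cyp3a16, Cyp3a25 and Cyp3a59 each held it. TTCNNNGAA and TTATGTAA were in none of the windows of these 5 members. Of 27025 windows of the same length, 13.8% held AGGTCA, 11.9% AGTTCA and 0.381% CAAAGTCCA, counting both strands. TATAA was in 23.5% of them, TTCNNNGAA in 7.18% and TTATGTAA in 0.862%. The GENCODE start of Cyp3a11 (chr5:145879964) lies inside its window, so its CAAAGTCCA match falls within the GENCODE span of the gene. A match is a run of letters and not evidence of binding.

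The 7 genes fall into 3 groups by sequence. The coding sequence of Cyp3a11 was 92.8% identical to that of Cyp3a16, 95.2% to Cyp3a41a and 94.9% to Cyp3a44, while Cyp3a25 and Cyp3a59 were 97.5% identical to each other. Cyp3a13 stood alone, with 76.4% identity to Cyp3a11 and 76.5% to Cyp3a25. The upstream windows followed the same grouping: those of Cyp3a25 and Cyp3a59 were 94.8% identical, those of Cyp3a16 and Cyp3a44 92.9%, and those of Cyp3a11 and Cyp3a59 53.1%. These likenesses set what reads with a unique position can measure. In stretches of 50 bases, 93.3% of the Cyp3a11 transcript sequence, 89.3% of Cyp3a16 and 100% of Cyp3a13 occurred in no other gene, against 73.2% for Cyp3a25, 70.0% for Cyp3a59, 73.6% for Cyp3a44 and 1.39% for Cyp3a41a. In stretches of 100 bases the shares were 93.2% for Cyp3a25, 92.6% for Cyp3a59, 94.6% for Cyp3a44 and 9.18% for Cyp3a41a. Levels of Cyp3a25 and Cyp3a59 may therefore be understated, by an amount that depends on read length. Few counts for Cyp3a41a could arise at either length.

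Cyp3a11 was far lower on both high-fat diets than on the base diet. Cyp3a11, which hydroxylates testosterone and many drugs, had 1830, 1423, 1447, 1740 and 1495 CPM in MCD livers. It had 751, 1398, 929, 645 and 767 CPM in HFD livers and 5993, 6254, 5995, 6262 and 6793 CPM in BD livers. The 3 diets did not overlap at any point: every HFD library lay below every MCD library, and every MCD library lay far below every BD library. The means were 1587 ± 186 CPM in MCD, 898 ± 298 CPM in HFD and 6260 ± 326 CPM in BD (SD, n = 5 each). Ordered by mean CPM among all genes, Cyp3a11 stood 61st in MCD, 134th in HFD and 17th in BD.

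In edgeR's quasi-likelihood test, with p-values adjusted by Benjamini-Hochberg over 12193 genes, Cyp3a11 fell by 2.87 ± 0.16 on the log2 scale in HFD relative to BD (SE, adjusted p = 4.10e-09). It fell by 2.12 ± 0.16 in MCD relative to BD (adjusted p = 6.01e-08). By p-value it ranked 1st of all genes tested in HFD against BD and 7th in MCD against BD. Between the 2 high-fat diets Cyp3a11 was higher in MCD than in HFD, by 0.75 ± 0.15 (adjusted p = 0.0147). That last call ended when HFD replicate 4 was left out (0.65, adjusted p = 0.0509) and when non-unique alignments entered as a covariate (0.62, adjusted p = 0.0618). With HFD replicate 2 and MCD replicate 3 both left out it was 0.98 (adjusted p = 6.06e-05), and HFD without replicate 2 averaged 773 ± 117 CPM (SD, n = 4).

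**Figure D1:**
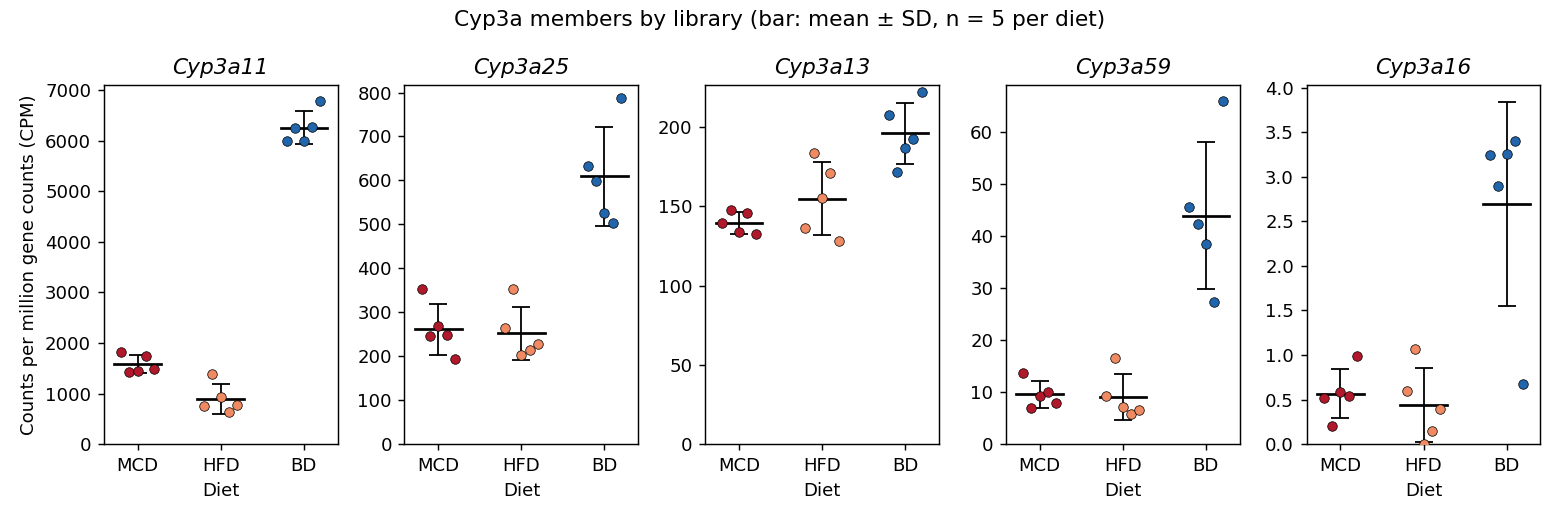
Level of the 5 tested Cyp3a members in each library, in CPM on linear axes that start at 0 and differ between panels. Points are libraries in the order of their replicate numbers, bars are the mean and SD of 5 libraries per diet. In the Cyp3a11 panel MCD lies between 1423 and 1830 CPM, HFD between 645 and 1398 CPM and BD between 5993 and 6793 CPM.

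Cyp3a16, the fetal form, was at the edge of detection. It had 0.519, 0.203, 0.584, 0.545 and 0.984 CPM in MCD livers, from 42 counts in all. It had 0.599, 1.07, 0, 0.144 and 0.398 CPM in HFD livers (24 counts), and 3.24, 2.90, 3.25, 3.40 and 0.671 CPM in BD livers (121 counts). In 4 BD libraries it lay above every MCD and HFD library, while BD replicate 5 lay within their range. Cyp3a16 fell by 2.31 ± 0.49 in MCD (adjusted p = 0.00233, edgeR) and fell by 2.52 ± 0.54 in HFD (adjusted p = 0.00678), both relative to BD. It entered the test because 1 MCD, 1 HFD and 4 BD libraries reached the level of 0.970 CPM that the count filter sets, so a member with so few counts had to be high in BD to be tested at all. Its values are imprecise at this depth, and some of its 50-base stretches are shared with another gene.

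Cyp3a41a and Cyp3a44, both known from female liver, had few or no counts. Cyp3a41a had 0 counts in every library. Since little of its sequence is unique, these counts set at most a loose limit on its RNA in these livers. The row of its near-identical neighbour Cyp3a41b was also at 0. Cyp3a44 had 2, 2, 2, 0 and 0 counts in MCD, 1, 4, 2, 3 and 1 in HFD, and 5, 2, 7, 0 and 6 in BD. The diets overlapped, and Cyp3a44 did not pass the count filter. Cyp3a57, a close relative of Cyp3a25, had 18 counts in MCD, 7 in HFD and 23 in BD and was not tested either.

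Cyp3a25 and Cyp3a59, the other pair of near relatives, were also lower on both high-fat diets. Cyp3a25, an enzyme of adult liver and small intestine, had 352, 245, 269, 248 and 194 CPM in MCD livers and 264, 352, 204, 214 and 228 CPM in HFD livers. In BD livers it had 633, 599, 525, 504 and 788 CPM. Every BD library lay above every library of the high-fat diets, and MCD and HFD covered nearly the same range. Cyp3a25 fell by 1.36 ± 0.16 in MCD (adjusted p = 2.68e-05, edgeR) and fell by 1.34 ± 0.16 in HFD (adjusted p = 4.20e-05) relative to BD. MCD and HFD differed by -0.02, with a 95% interval from -0.36 to 0.31 (adjusted p = 0.963).

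Cyp3a59 had 13.8, 6.92, 9.23, 10.1 and 7.98 CPM in MCD livers, and 9.24, 16.6, 7.10, 5.84 and 6.63 CPM in HFD livers. It had 45.6, 42.3, 38.6, 27.4 and 66.0 CPM in BD livers, again above every library of the other diets. Cyp3a59 fell by 2.33 ± 0.27 in MCD (adjusted p = 4.32e-05, edgeR) and fell by 2.35 ± 0.28 in HFD (adjusted p = 7.50e-05) relative to BD. Between MCD and HFD the difference was 0.02, with a 95% interval from -0.58 to 0.62 (adjusted p = 0.980). One Cyp3a59 count went with 24.3 to 35.5 counts of Cyp3a25 in MCD and 21.2 to 36.7 in HFD, against 11.9 to 18.4 in BD, with no overlap between BD and the other diets. The 2 genes share some of their sequence, less of it in stretches of 100 bases than of 50, so this ratio is uncertain in its size.

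Cyp3a13 lies apart from the others on chromosome 5 and had the smallest fold changes of the 5 tested members in both comparisons with BD. It is found in liver and intestine, and had 139, 148, 134, 146 and 132 CPM in MCD livers. It had 136, 183, 155, 171 and 128.05 CPM in HFD livers and 207, 172, 187, 193 and 222 CPM in BD livers. MCD lay wholly below BD, while HFD replicate 2 lay above the lowest BD library. Cyp3a13 fell by 0.63 ± 0.10 in MCD relative to BD (adjusted p = 3.60e-04, edgeR) and fell by 0.41 ± 0.10 in HFD relative to BD (adjusted p = 0.0229). The HFD call ended without HFD replicate 1 (adjusted p = 0.0705), without HFD replicate 5 (adjusted p = 0.0668) and without BD replicate 1 (adjusted p = 0.0630). MCD and HFD differed by -0.22, with a 95% interval from -0.44 to -0.002 and an adjusted p of 0.245.

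Set against all genes, Cyp3a11, Cyp3a13, Cyp3a16, Cyp3a25 and Cyp3a59 (5 tested members of 7) were called lower in HFD than in BD, where 3.27% of all tested genes were called lower and 3.65% higher. Cyp3a16 had to be high in BD to be tested, so its place in these counts is no support for them. In MCD against BD 5 were called lower, with 8.64% of all genes called lower and 12.8% higher. In MCD against HFD, 1 member (Cyp3a11) was called higher and 0 lower, where 2.22% of genes were called higher and 0.927% lower. Cyp3a13 was lower in MCD than in HFD with an unadjusted p of 0.0477 (edgeR) but was not called (adjusted p = 0.245). By p-value it ranked only 2375th of the 12193 genes tested in that comparison. Libraries of the 2 diets did not overlap for 4 members in MCD against BD (2.76% of all genes were lower without overlap), for 3 members in HFD against BD (2.47%), and for 1 member, higher, in MCD against HFD (3.85%). The median log2 fold change of all tested genes was -0.025 in MCD against BD, -0.008 in HFD against BD and -0.003 in MCD against HFD. Scaling by total gene counts alone moved the median of all genes in MCD against BD to 0.12, and the 5 members were called lower on both high-fat diets under that scaling too. The comparisons with BD share the same BD libraries. Without HFD replicate 2 and MCD replicate 3, the log2 fold changes in MCD against BD were -2.09 for Cyp3a11, -0.60 for Cyp3a13, -2.32 for Cyp3a16, -1.37 for Cyp3a25 and -2.30 for Cyp3a59. In HFD against BD they were -3.07 for Cyp3a11, -0.46 for Cyp3a13, -3.09 for Cyp3a16, -1.47 for Cyp3a25 and -2.68 for Cyp3a59. In bulk liver RNA, fewer cells of a type and less RNA per cell cannot be told apart.

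**Figure D2:**
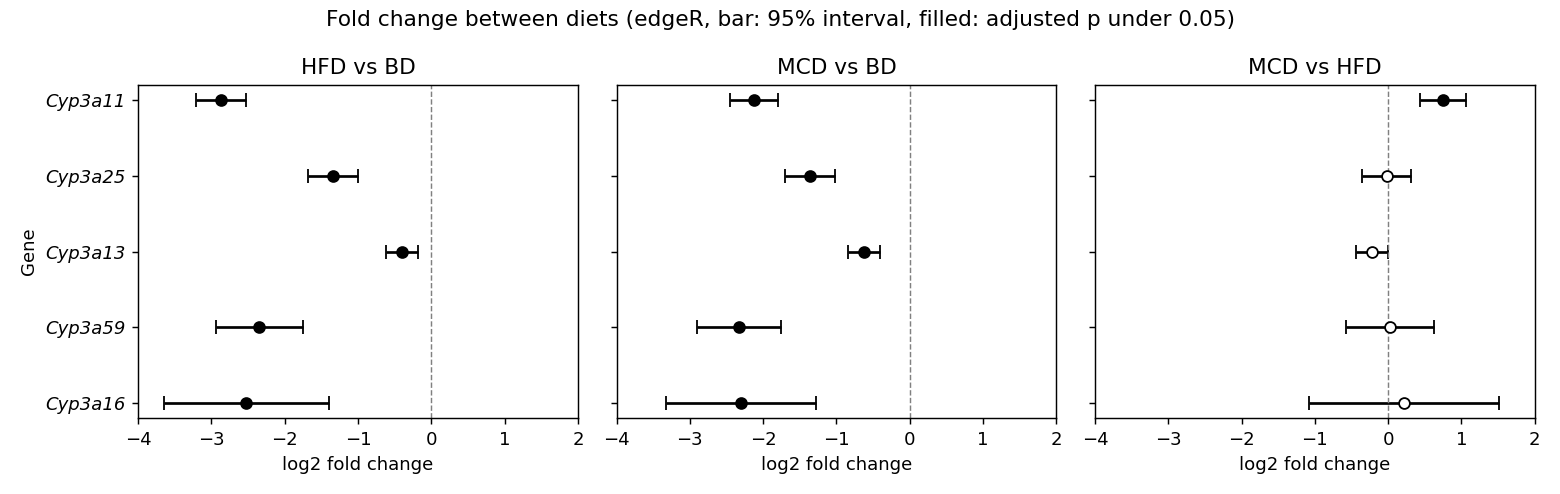
Log2 fold change of the 5 tested members in HFD against BD, MCD against BD and MCD against HFD, from edgeR's quasi-likelihood fit over 15 libraries. Bars are 95% intervals and filled points have an adjusted p under 0.05. Cyp3a13 lies nearest to 0 in both comparisons with BD (-0.41 in HFD, -0.63 in MCD), and Cyp3a11 alone has a filled point in MCD against HFD (0.75).

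The members changed unequally, so the make-up of the family differed between diets. Summed over the 7 members, the level was 1999 ± 231 CPM in MCD, 1315 ± 368 CPM in HFD and 7112 ± 440 CPM in BD (SD, n = 5 each). Cyp3a11 made up 79.4 ± 1.85% of these counts in MCD, 67.6 ± 4.21% in HFD and 88.1 ± 1.33% in BD. Cyp3a25 made up 13.03 ± 1.90% in MCD, 19.5 ± 2.67% in HFD and 8.53 ± 1.11% in BD. Cyp3a13 made up 7.05 ± 0.775% in MCD, 12.2 ± 2.62% in HFD and 2.76 ± 0.210% in BD. Per kilobase of exon sequence the order of 4 members on each diet was Cyp3a11, Cyp3a25, Cyp3a13 and Cyp3a59, with mean levels per kilobase of 312, 125.6, 47.3 and 4.80 CPM in MCD, 176, 121, 52.4 and 4.53 CPM in HFD, and 1229, 293, 66.3 and 22.0 CPM in BD. On no diet did the libraries of neighbours in that order overlap in this level, except for Cyp3a11 and Cyp3a25 in HFD.

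Within a library, 1 count of Cyp3a13 went with 9.64 to 13.1 counts of Cyp3a11 in MCD, 3.77 to 7.62 in HFD and 28.9 to 36.4 in BD. For Cyp3a25 the number was 5.20 to 7.70 in MCD, 2.84 to 4.55 in HFD and 8.63 to 12.4 in BD. For neither gene did any 2 diets overlap. The log2 ratio to Cyp3a11 (CPM plus 0.5) was compared between diets with two-sided exact permutation tests, 12 in all, whose smallest possible p is 0.00794. For Cyp3a13 the ratio was higher by 1.502 in MCD than in BD, higher by 2.51 in HFD than in BD, and differed by -1.004 between MCD and HFD. For Cyp3a25 the differences were 0.76 in MCD against BD, 1.57 in HFD against BD and -0.81 in MCD against HFD. Each of these 6 had the smallest p the exact test allows, 0.00794 (adjusted p = 0.0136).

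Cyp3a59 kept closer to Cyp3a11. Its count went with 133 to 206 counts of Cyp3a11 in MCD, 81.3 to 131 in HFD and 103 to 229 in BD, and both high-fat diets overlapped BD but not each other. Its log2 ratio to Cyp3a11 differed by -0.13 in MCD against BD (exact permutation test, adjusted p = 0.556) and by -0.73 in MCD against HFD (adjusted p = 0.0136). In HFD against BD it was higher by 0.60 (exact permutation test, adjusted p = 0.0357), but with 1 library left out in turn the adjusted p ran from 0.0238 to 0.0714. The difference itself ran from 0.4407 to 0.7255 there, and with fewer libraries the smallest p the exact test allows is larger. For Cyp3a16 the ratio differed by 0.49 in MCD against BD (adjusted p = 0.364), 1.10 in HFD against BD (adjusted p = 0.0529) and -0.61 in MCD against HFD (adjusted p = 0.0952, exact permutation tests), and its few counts limit each of these.

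**Figure D3:**
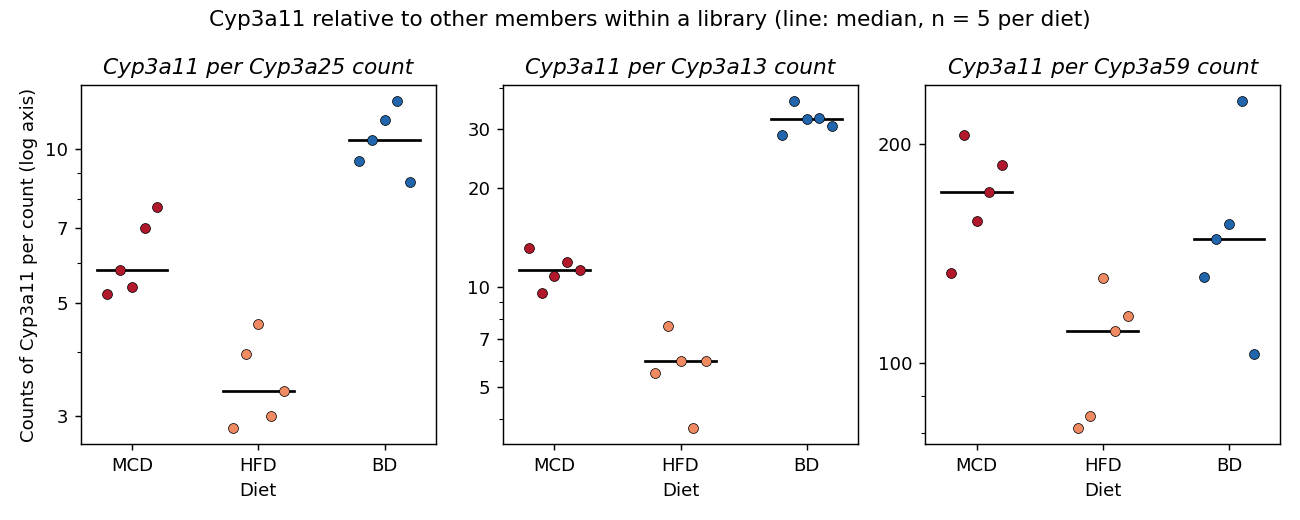
Counts of Cyp3a11 per count of Cyp3a25, Cyp3a13 and Cyp3a59 in each library, on log axes that differ between panels. Points are libraries in the order of their replicate numbers and lines are medians of 5 libraries per diet. In the Cyp3a13 panel MCD lies between 9.64 and 13.1, HFD between 3.77 and 7.62 and BD between 28.9 and 36.4, while in the Cyp3a59 panel both high-fat diets overlap BD and every MCD library (133 to 206) lies above every HFD library (81.3 to 131).

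The members sit in 2 places on mouse chromosome 5 (GRCm38, GENCODE M21). Cyp3a13 spans chr5:137892932-137921619. The rest form a cluster from Cyp3a16 (chr5:145436309-145469723) through Cyp3a41a (chr5:145694049-145720136), Cyp3a44 (chr5:145773983-145805874), Cyp3a11 (chr5:145854426-145879964) and Cyp3a25 (chr5:145977194-146009618) to Cyp3a59 (chr5:146079257-146113287), all protein-coding. Within 300 kb of the cluster 11 other genes were tested, with a median log2 fold change of -0.05 in HFD against BD and -0.20 in MCD against BD. Of these, Zfp655 was called higher in HFD than in BD, and Ptcd1 and Cpsf4 were called lower in MCD than in BD. Over all tested genes, 3.65% were called higher in HFD than in BD and 8.64% lower in MCD than in BD. Zfp655 (0.48 ± 0.13, adjusted p = 0.0341, edgeR), a zinc finger gene, lost its call without HFD replicate 1, 2 or 4 or BD replicate 1, 2 or 4 (adjusted p 0.0565 to 0.0935). That call also ended with limma-voom (adjusted p = 0.0527), with thinned counts (adjusted p = 0.0582) and without HFD replicate 2 and MCD replicate 3 together (adjusted p = 0.0807). Ptcd1 (-0.37 ± 0.12, adjusted p = 0.0295), which acts in mitochondrial RNA handling, lost it without MCD replicate 1, 2 or 5 or BD replicate 2 or 4 (adjusted p 0.0644 to 0.0814) and under 6 of the other settings (adjusted p 0.0550 to 0.207). Cpsf4 (-0.50 ± 0.16, adjusted p = 0.0282), a subunit of the polyadenylation complex, lost it without MCD replicate 1, 2 or 4 or BD replicate 1, 2 or 3 (adjusted p 0.0585 to 0.0872) and without TMM factors (adjusted p = 0.129).

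Within 300 kb of Cyp3a13, 22 other genes were tested, with medians of -0.12 in HFD against BD and -0.10 in MCD against BD. Of these 22, 1 was called higher in HFD than in BD, and 2 higher and 3 lower in MCD than in BD. Over all tested genes, 3.65% were called higher in HFD, and 12.8% higher and 8.64% lower in MCD. In MCD against HFD 1 of the 22 was called higher, where 2.22% of all tested genes were. Pilra, an inhibitory receptor of myeloid cells, rose by 1.33 ± 0.20 in MCD (adjusted p = 1.62e-04, edgeR) and by 0.93 ± 0.21 in HFD (adjusted p = 0.00887), both relative to BD. The HFD call ended with counts thinned to the shallowest library (0.64, adjusted p = 0.232). In MCD relative to BD, Pcolce, which aids collagen processing, rose by 0.83 ± 0.18 (adjusted p = 0.00244), and Gjc3, a connexin gene, fell by 1.204 ± 0.25 (adjusted p = 0.00186). Zkscan1 (-0.42, adjusted p = 0.0129) and Zfp113 (-0.53, adjusted p = 0.0124), both zinc finger genes, fell as well, but neither call held without TMM factors (adjusted p = 0.0838 for Zkscan1 and 0.0633 for Zfp113). Zkscan1 also lost its call with the non-unique alignment covariate (-0.31, adjusted p = 0.101), and Zfp113 with counts thinned to the shallowest library (-0.27, adjusted p = 0.385). Pcolce was also called higher in MCD than in HFD (0.66, adjusted p = 0.0449), a call that ended under most single-library omissions, with MCD replicate 1, 4 or 5, HFD replicate 1, 3, 4 or 5 or any of BD replicates 1 to 4 left out (adjusted p 0.0501 to 0.137).

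**Figure D4:**
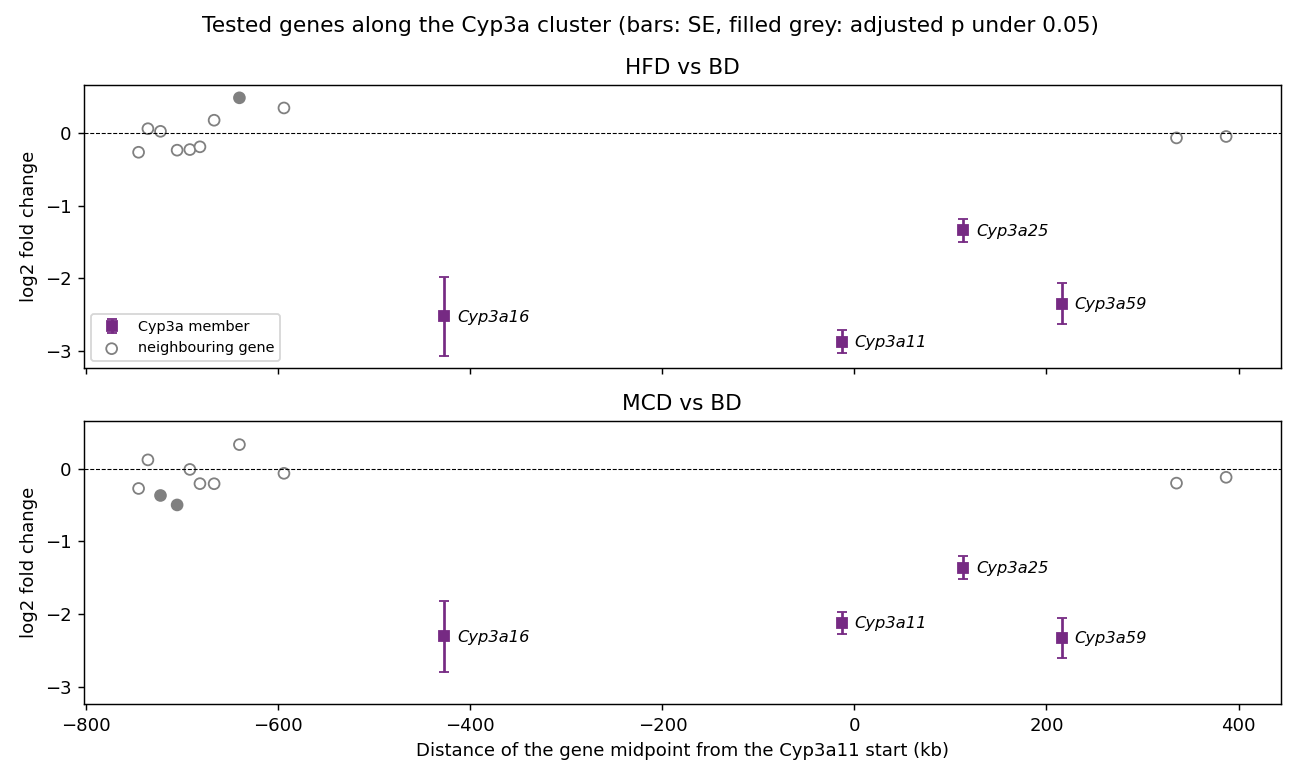
Log2 fold change of tested genes along the Cyp3a cluster against the distance of each gene's midpoint from the Cyp3a11 start, in kilobases, in HFD against BD (top) and MCD against BD (bottom). Purple squares are Cyp3a members with their SE, grey circles are the 11 neighbouring genes, filled where the adjusted p is under 0.05. The 4 tested members of the cluster lie between -1.34 and -2.87 in HFD and between -1.36 and -2.33 in MCD, and the neighbours lie between -0.50 and 0.48.

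RNA of the receptors that act on Cyp3a genes showed no difference between diets past the threshold for either PXR or CAR. Nr1i2 (PXR) averaged 84.6 ± 12.1 CPM in MCD, 79.6 ± 9.50 CPM in HFD and 71.1 ± 5.84 CPM in BD (SD, n = 5 each). Its log2 difference from BD was 0.11 in MCD, with a 95% interval from -0.10 to 0.31, and 0.10 in HFD, with an interval from -0.10 to 0.31. Nr1i3 (CAR) averaged 152 ± 34.2 CPM in MCD, 118 ± 30.7 CPM in HFD and 126.2 ± 20.6 CPM in BD, and its log2 difference from BD was 0.12 in MCD (interval -0.23 to 0.47) and -0.17 in HFD (interval -0.52 to 0.18).  Of 16 receptors, coregulators and liver transcription factors, 1 was called higher in HFD than in BD (2 without MCD replicate 2 or 5), and 1 higher and 1 lower in MCD than in BD. Over all genes tested, 12.8% were called higher and 8.64% lower in MCD, and 3.65% higher and 3.27% lower in HFD. Ppara, the fatty acid receptor, rose by 0.62 ± 0.14 in MCD (adjusted p = 0.00347, edgeR) and by 0.96 ± 0.14 in HFD (adjusted p = 2.42e-04). Hnf4a, a master regulator of hepatocyte genes, fell by 0.37 ± 0.09 in MCD (adjusted p = 0.00778), but not past the threshold when libraries were scaled by total gene counts (-0.23, adjusted p = 0.0927).

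Of 7 genes for electron partners and heme, 1 was called higher and 2 lower in MCD than in BD, and 1 higher and 1 lower in HFD than in BD. The shares over all tested genes were 12.8% higher and 8.64% lower in MCD, and 3.65% higher and 3.27% lower in HFD. Por, the reductase that feeds P450 enzymes, averaged 199 ± 97.6 CPM in MCD, 215 ± 44.1 CPM in HFD and 225 ± 66.7 CPM in BD. Its interval reached from -0.97 to 0.32 in MCD and from -0.78 to 0.52 in HFD. Hmox1, which breaks heme down, rose by 0.81 ± 0.12 in MCD relative to BD (adjusted p = 1.68e-04, edgeR). Pgrmc1, a heme-binding partner of P450 enzymes, fell by 0.46 ± 0.10 in HFD relative to BD (adjusted p = 0.00623). Over the single-library omissions the MCD counts of this list ran from 1 to 1 higher and from 0 to 2 lower, and the HFD counts from 0 to 1 higher and from 1 to 2 lower.

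Other genes known to be induced through PXR and CAR were often lower on the high-fat diets too. Of 23 tested (25 listed), 12 were called lower and 2 higher in MCD than in BD, and 13 lower and 0 higher in HFD than in BD. The medians of the list were -0.82 in MCD and -0.87 in HFD on the log2 scale. Among all tested genes, 8.64% were called lower and 12.8% higher in MCD, and 3.27% lower and 3.65% higher in HFD. Cyp2c55, an inducible arachidonic acid hydroxylase, averaged 3.48 ± 1.02 CPM in MCD, 3.22 ± 0.428 CPM in HFD and 22.1 ± 1.88 CPM in BD. It fell by 2.78 ± 0.16 in MCD (adjusted p = 3.97e-09, edgeR) and fell by 2.86 ± 0.17 in HFD (adjusted p = 4.98e-09). Cyp2c29, which makes epoxides of arachidonic acid, fell by 2.26 ± 0.14 in MCD (adjusted p = 4.97e-09) and fell by 1.61 ± 0.14 in HFD (adjusted p = 6.61e-07). In MCD against HFD 4 of the list were called higher and 1 lower, counts that ran from 2 to 9 and from 0 to 3 with 1 library left out in turn. Among all tested genes, 2.22% were called higher and 0.927% lower in that comparison. The 2 called higher in MCD than in BD were Gsta1 and Abcb1a, and that count ran from 0 to 2.

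**Figure D5:**
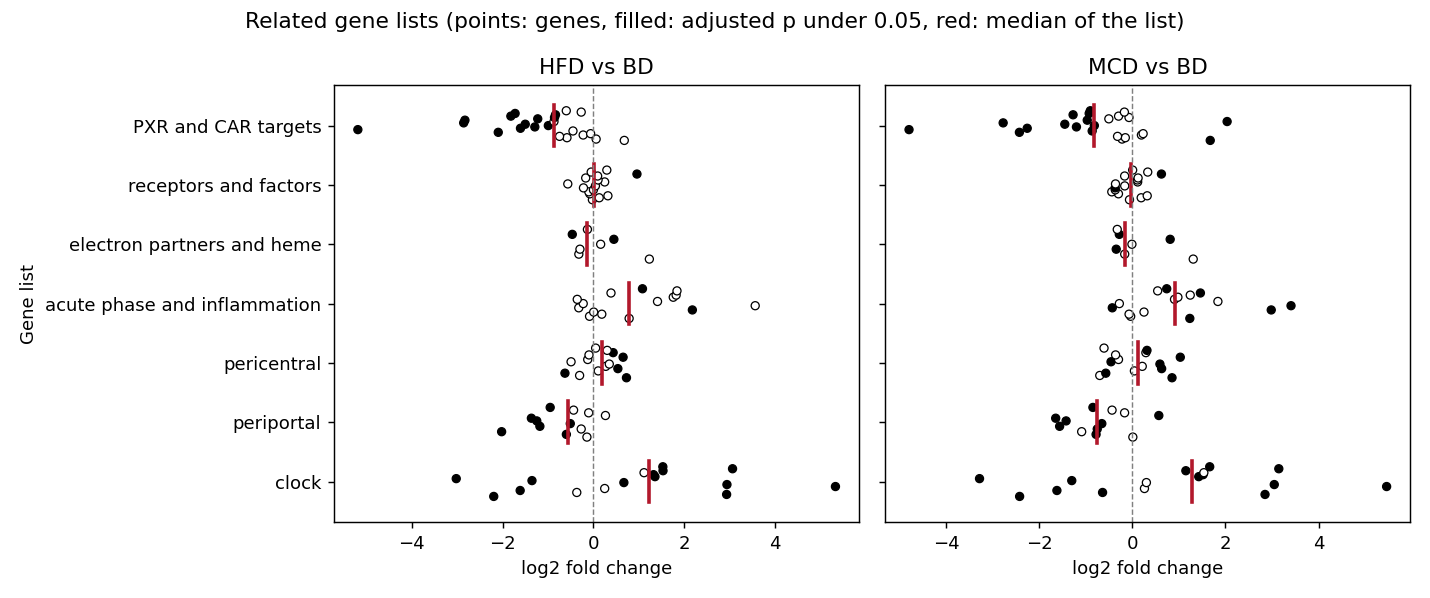
Log2 fold change of the tested genes of 7 related lists in HFD against BD (left) and MCD against BD (right). Each point is a gene, filled where the adjusted p is under 0.05, and the red line is the median of the list. PXR and CAR targets have medians of -0.87 in HFD and -0.82 in MCD, while receptors and factors have medians of 0.02 in HFD and -0.03 in MCD.

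The genes with profiles most like those of the members were found by the mean absolute difference, over 15 libraries, of log2 CPM relative to the BD mean. For Cyp3a11 the first 5 were Cyp2c55 (0.38), the carboxylesterase Ces2a (0.49), the lysyl oxidase-like gene Loxl4 (0.54), the RING finger gene Lonrf3 (0.54) and Cyp2c29 (0.60). For Cyp3a59 they were Cyp2c55 (0.44), Ces2a (0.48) and Cyp2c29 (0.55). Ces2a averaged 80.3 ± 15.9 CPM in MCD, 96.2 ± 20.8 CPM in HFD and 394 ± 23.4 CPM in BD. Among the members, Cyp3a11 and Cyp3a59 were nearest to each other (0.36), nearer than Cyp3a25 and Cyp3a59 (0.70), which share more of their sequence. For Cyp3a25 the first 3 were the glutathione transferase Gstt3 (0.29), the phosphatase inhibitor Ppp1r1b (0.31) and the P450 gene Cyp2c37 (0.31). For Cyp3a13 they were the peroxisomal oxidase Pipox (0.12), the sulfite oxidase Suox (0.12) and the phosphodiesterase Pde3b (0.12). For Cyp3a16 they were the nuclear receptor Ppard (0.59), the glutathione transferase Gsta2 (0.72) and Loxl4 (0.76).

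Several other gene groups also held genes called in the comparisons with BD, in both directions for the clock. Of 16 clock genes, 8 were called higher and 5 lower in MCD than in BD, and 9 higher and 4 lower in HFD than in BD. The count of 8 higher in MCD was 5 with the non-unique alignment covariate. Among all tested genes, 12.8% were called higher and 8.64% lower in MCD, and 3.65% higher and 3.27% lower in HFD. Nr1d2, a repressor of the clock, rose by 1.52 ± 0.13 in MCD (adjusted p = 3.58e-07, edgeR) and by 1.33 ± 0.13 in HFD (adjusted p = 2.38e-06), and Cry1, another repressor, fell by 1.62 ± 0.17 in MCD and fell by 1.61 ± 0.17 in HFD. Dbp, a clock-driven transcription factor of liver chosen here after its values were seen, averaged 31.2 ± 7.97 CPM in MCD, 26.9 ± 12.1 CPM in HFD and 0.617 ± 0.948 CPM in BD. The labels give no hour of collection, and the part of these genes in the differences of the Cyp3a members was not tested. Hour of collection and diet cannot be told apart here.

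Some zonal genes of the liver lobule were called as well. Of 12 periportal genes, 7 were called lower and 1 higher in MCD than in BD, and 7 lower and 0 higher in HFD than in BD. Hal, which breaks down histidine, fell by 1.65 ± 0.13 in MCD (adjusted p = 1.15e-07, edgeR) and fell by 1.37 ± 0.13 in HFD (adjusted p = 1.53e-06), and Gls2, the liver glutaminase, fell by 1.43 ± 0.13 in MCD and fell by 1.25 ± 0.13 in HFD. Of 14 pericentral genes, the zone where Cyp3a11 is highest, 5 were called higher and 2 lower in MCD than in BD, and 4 higher and 1 lower in HFD than in BD. Glul, the glutamine synthetase of cells around the central vein, rose by 0.63 ± 0.10 in MCD (adjusted p = 3.26e-04) and by 0.54 ± 0.10 in HFD (adjusted p = 0.0029). Rhbg, an ammonium transporter, rose by 1.03 ± 0.16 in MCD (adjusted p = 1.82e-04) and was called higher in HFD (0.66, adjusted p = 0.0178), except without BD replicate 4 (adjusted p = 0.0525). With 1 library left out in turn the pericentral counts in MCD ran from 4 to 6 higher and from 0 to 3 lower, and in HFD from 1 to 5 higher and from 0 to 1 lower. The MCD count lower was also 0 without TMM factors and with the non-unique alignment covariate. Over all tested genes the shares were 12.8% higher and 8.64% lower in MCD, and 3.65% higher and 3.27% lower in HFD.

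Of 15 acute phase and inflammatory genes, which are known to go with lower P450 levels, 5 were called higher and 1 lower in MCD than in BD, and 2 higher and 0 lower in HFD than in BD. The count of 1 lower in MCD was 0 in 11 of the 15 single-library omissions, without TMM factors, with upper-quartile factors, without a count filter and with thinned counts, and the count of 5 higher was 3 with the non-unique alignment covariate. In HFD the count lower was 1 without HFD replicate 2, and DESeq2 called 5 higher. Beside this and the next 2 lists stand the shares over all tested genes. They were 12.8% higher and 8.64% lower in MCD, and 3.65% higher and 3.27% lower in HFD. Il1rn, the interleukin-1 receptor antagonist, rose by 2.98 ± 0.42 in MCD (adjusted p = 1.70e-04, edgeR) and by 2.18 ± 0.43 in HFD (adjusted p = 0.00538). Saa3, a serum amyloid of macrophages and injured tissue, rose by 1.46 ± 0.24 in MCD (adjusted p = 3.02e-04). Of 15 male-biased liver genes, 3 were called lower in MCD than in BD and 0 in HFD, with Elovl3, a fatty acid elongase, lower by -2.21 ± 0.43 in MCD (adjusted p = 0.00234). Serpina1e, a serine protease inhibitor, was called lower in MCD (-2.63, adjusted p = 0.0208), but not without MCD replicate 1 (adjusted p = 0.0532) or MCD replicate 4 (adjusted p = 0.0525), and not with the covariate (-1.66, adjusted p = 0.106). The MCD count of the list ran from 1 to 5 with 1 library left out in turn. Of 13 female-biased genes 4 were tested, and 2 were called higher on each high-fat diet (1 to 2 with 1 library left out). Cyp17a1, a steroid-making P450, rose by 1.89 ± 0.33 in HFD (adjusted p = 0.00274) and had a log2 fold change of 0.16 in MCD (adjusted p = 0.778). Cyp4a10, a fatty acid hydroxylase, rose by 1.03 ± 0.27 in MCD (adjusted p = 0.0138), a call that ended with the non-unique alignment covariate (0.76, adjusted p = 0.0766). In HFD it was called higher too (1.09, adjusted p = 0.0256), but not without HFD replicate 2 or 5 or BD replicate 1, 2 or 5 (adjusted p 0.0537 to 0.0651).

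Macrophage, stellate cell and endothelial markers included genes called higher in MCD than in BD. Among all tested genes, 12.8% were called higher and 8.64% lower in MCD than in BD, and 3.65% higher in HFD. All 8 macrophage markers were called higher in MCD than in BD and 3 in HFD, and the HFD count ran from 2 to 6 with 1 library left out in turn (6 without BD replicate 5). Their summed level was 443 to 602 CPM in MCD, 295 to 450 CPM in HFD and 187 to 330 CPM in BD. Cd68, a lysosomal macrophage protein, rose by 1.39 ± 0.18 in MCD (adjusted p = 5.31e-05, edgeR) and by 0.96 ± 0.19 in HFD (adjusted p = 0.00304). Ctss, a lysosomal protease, rose by 1.21 ± 0.14 in MCD (adjusted p = 1.41e-05) and by 0.59 ± 0.14 in HFD (adjusted p = 0.0128). Of 8 stellate cell markers, 7 were called higher in MCD and 0 in HFD, with summed levels of 483 to 910 CPM in MCD, 296 to 489 CPM in HFD and 243 to 313 CPM in BD. Col1a2, a chain of collagen I, rose by 2.26 ± 0.32 in MCD (adjusted p = 2.26e-04), and Pdgfrb, a growth factor receptor of these cells, by 0.97 ± 0.15 (adjusted p = 1.96e-04). Of 5 endothelial markers, 3 were called higher in MCD and 0 in HFD, with Stab2 up by 0.44 ± 0.09 (adjusted p = 0.00175) and Pecam1 up by 0.52 ± 0.11 (adjusted p = 0.0019). Their sums were 264 to 296 CPM in MCD, 196 to 238 CPM in HFD and 195 to 243 CPM in BD. Of 6 hepatocyte markers, Fgb alone was called, lower in MCD than in BD (-0.62, adjusted p = 0.00646), but not with the non-unique alignment covariate (-0.36, adjusted p = 0.0609). That count was 2 without MCD replicate 2 or BD replicate 5.

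Cholangiocyte markers summed to 82.1 to 279 CPM in MCD, 58.3 to 198 CPM in HFD and 53.2 to 91.1 CPM in BD. Of 4 tested, Sox9 fell by 0.85 ± 0.21 in MCD and fell by 0.95 ± 0.22 in HFD (adjusted p = 0.00778 and 0.0124, edgeR), and the MCD call ended with the covariate (-0.75, adjusted p = 0.0527). Spp1, which macrophages also make, was called higher in MCD (1.44, adjusted p = 0.0253), but not without MCD replicate 1, 2 or 4 or BD replicate 1, 2 or 3 (adjusted p 0.0512 to 0.0688) and not with the covariate (adjusted p = 0.115). Intestinal markers, of interest because gut also makes CYP3A enzymes, summed to 105 to 210 CPM in MCD, 83.6 to 167 CPM in HFD and 38.3 to 55.7 CPM in BD. Nearly all of that was Fabp2, which liver also makes and which rose by 1.67 ± 0.22 in MCD and by 1.36 ± 0.22 in HFD (adjusted p = 9.80e-05 and 0.00103, edgeR). Cdh17 was at 0 in 10 libraries and Muc2 in 8. Lymphocyte markers summed to 3.66 to 5.71 CPM in MCD, 1.82 to 4.35 CPM in HFD and 2.10 to 3.24 CPM in BD, and neutrophil markers to 0.876 to 2.98 CPM in MCD, 0.670 to 1.65 CPM in HFD and 0.224 to 1.09 CPM in BD. Pancreatic markers reached 0.437 CPM in MCD, 0.458 CPM in HFD and 0.800 CPM in BD, with Cpa1 and Pnlip at 0 in every library. Erythroid markers summed to 125.6 to 187 CPM in MCD, 97.0 to 158 CPM in HFD and 128.2 to 145 CPM in BD, with Hba-a1 at 0 in every library. Only 1 of 5 listed lymphocyte markers and 1 of 3 listed erythroid markers could be tested, and neither was called. The part of the other cell types in the differences of the Cyp3a members was not tested.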

How the data were processed

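PolyA RNA of 15 liver samples on 3 diets was sequenced, and the authors deposited 1 table of whole-number counts per gene symbol for each library. Per the labels' protocols the libraries were made with a stranded mRNA kit. The genome build GRCm38/mm10 and the tools TopHat2 (2.0.13), Trimmomatic, HTSeq and DESeq2 stand in the submitters' processing notes. How HTSeq used strand and which annotation it read were not given in the sources used, so overlapping and antisense genes are uncertain. Summary rows that name no gene were left out of all totals. Reads outside genes were 12.7% to 17.0% and ambiguous reads 0.567% to 0.841% of reads with a unique position.

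The test was edgeR's (4.0.16, in R 4.3.3): TMM factors, filterByExpr by diet (minimum count 10, minimum total 15), a robust quasi-likelihood fit over 15 libraries and Benjamini-Hochberg adjustment over 12193 genes, with a threshold of 0.05. CPM is counts per 1000000 gene counts, without TMM factors. Fold changes are log2 with their SE. Ratios between members within a library were compared with exact permutation tests (SciPy 1.17.1), 5 libraries against 5, adjusted over 12 tests. The 95% intervals come from the edgeR fit, and the level that 3 counts are worth covers counting error only. Transcript uniqueness and coding identity came from GENCODE M21 with Biopython 1.88, and upstream windows from RefSeq. The GENCODE start of Cyp3a11 lies upstream of the RefSeq start used for its window.

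The members, the 19 gene lists (187 entries, 185 found, 3 by another symbol) and the tests were chosen with earlier results of these data known. Named are the members, the 2 genes with the smallest p of each list, called neighbours within 300 kb, and the genes nearest in profile (at least 5 CPM on average, predicted genes left out). No 2 libraries of a diet agreed within counting noise (30 pairs, chi-square from 7.33 to 65.0 for each degree of freedom). The fit and the permutation test were tested on simulated data. The 25 alternatives covered DESeq2 1.42.0, limma-voom (limma 3.58.1), other scalings, no filter, 2 diets only, a covariate, thinned counts and libraries left out.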

Additional observations from a re-analysis of the deposited data

Results flagged for a closer look

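In groups of 5 libraries a value was singled out when its gap to the nearest other library, divided by the range of the group, was above 0.71. Of 33 groups of values tested 4 had such a library, and chance gives about 1 in 20 groups. The summed level of the members in HFD replicate 2 was 1952 CPM, and the next highest HFD library had 1295 CPM. In BD replicate 5 the summed level was 7869 CPM, and the next highest BD library had 7071 CPM. Cyp3a16 stood at 0.6715 CPM in BD replicate 5, and the next lowest BD library had 2.90 CPM. The log2 ratio of Cyp3a16 to Cyp3a11 in BD replicate 5 was -12.5, and the next lowest was -10.84. BD replicate 5 thus held the highest Cyp3a11, Cyp3a13, Cyp3a25 and Cyp3a59 of its diet and the lowest Cyp3a16.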

How the results depend on the processing

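Under 25 alternatives the calls of Cyp3a11, Cyp3a16, Cyp3a25 and Cyp3a59 against BD on both high-fat diets, and of Cyp3a13 in MCD, held wherever the gene was tested, and that of Cyp3a13 in HFD ended without HFD replicate 1 or 5 or BD replicate 1. Cyp3a16 was not tested with thinned counts or in the fit of MCD and HFD alone. Under the count filter it had to be high in BD to be tested, so its calls are no support. The cause of the changes below was not tested. With a covariate for non-unique alignments, Cyp3a11 in MCD against HFD was 0.616 and no longer called, which left 0 members called higher. There Cyp3a16 in MCD against HFD was -0.6338 and Cyp3a59 -0.02923, both turned in direction, and Cyp3a59 was -0.04865 with thinned counts. Cyp3a25 in MCD against HFD turned to 0.05112 without TMM factors, 0.01894 with upper-quartile factors and 0.1063 without HFD replicate 2 and MCD replicate 3, none of them called. Without a count filter Cyp3a44 was called lower in MCD than in BD (adjusted p = 0.0482).

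The log2 ratio to Cyp3a11 depends on the pseudocount. At 0.1 CPM it was -0.01009 for Cyp3a16 in MCD against BD and 0.5406, past the threshold no longer, for Cyp3a59 in HFD against BD. At 2 CPM it was 1.938 in HFD against BD, 1.153 in MCD against BD and -0.785 in MCD against HFD for Cyp3a16, each past the threshold, and 0.02353 for Cyp3a59 in MCD against BD. Without HFD replicate 2 and MCD replicate 3 it was 0.5358 for Cyp3a59 in HFD against BD, not past the threshold.

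With 1 library left out in turn, log2 fold changes in MCD against HFD ran from 0.6526 to 0.9602 for Cyp3a11, -0.1742 to 0.8073 for Cyp3a16, -0.1268 to 0.1262 for Cyp3a25 and -0.1288 to 0.3664 for Cyp3a59, and in HFD against BD from -0.4552 to -0.347 for Cyp3a13. Members called higher in MCD than in HFD ran from 0 to 1 and members called lower in HFD than in BD from 4 to 5. The log2 ratio of Cyp3a59 in HFD against BD ran from 0.4407 to 0.7255, and that of Cyp3a16 from 0.7376 to 1.324 in HFD against BD and from -0.8385 to -0.4781 in MCD against HFD.

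Counts over all genes moved by over 1.5 times in few settings in the comparisons with BD, but in many settings in MCD against HFD. Genes called lower in MCD against BD were 513 without TMM factors (1053 with them) and those called higher in HFD against BD 293 without BD replicate 3 (445 with it). In MCD against HFD, 113 lower and 271 higher became 268 and 433 with DESeq2, 67 and 411 without TMM factors, 53 and 171 with 2 diets only, 18 and 64 with the covariate, 67 and 160 with thinned counts, and 482 and 883 without HFD replicate 2 and MCD replicate 3. With 1 library left out they ran from 18 to 409 lower and from 56 to 839 higher, the highest without HFD replicate 2. No paired analysis was possible because the replicate numbers were given in accession order and link no libraries across diets. Depth limits what can be said of Cyp3a16 and Cyp3a44, whose counts are few.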
